A study of Mus musculus with 6 samples.

Results

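The MHC class I presentation genes described here are H2-K1, H2-D1, B2m, Tap1, Tap2, Tapbp, Psmb8, Psmb9, Nlrc5 and Erap1, 10 of the 20649 genes in the deposited count matrix. They were listed by name for their place in a single pathway, with no threshold on a measured value, although earlier results of these data were known when the list was made. CD45-enriched cells of subcutaneous CT26 tumors, a mouse colon carcinoma line, were profiled by 10x Genomics 3′ single-cell RNA sequencing in BALB/c mice. The labels list 6 tumors, 3 given exoASO-Scramble and 3 given exoASO-STAT6, which are exosomes carrying a scrambled antisense oligonucleotide or one against Stat6. Both groups received 3 intratumoral injections, and tumors were taken 24 h after the last of them. The matrix holds 9235 cell barcodes in 6 libraries that are told apart by the barcode suffixes 3 to 8. No label ties a suffix to a tumor or to a treatment, so the barcodes were handled as 1 pooled sample. Accordingly, the treatments were not compared, no p-value is given, and the 6 libraries serve to show the spread of each value and whether a difference had 1 direction in all of them. They are not replicates of a treatment. Stat6, the target of the oligonucleotide, had 58.0 UMIs per 1000000 UMIs in macrophages by the median over libraries (lowest 46.5, highest 75.4), and this value was not used to assign any library.

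MHC class I molecules show peptides from inside the cell to CD8 T cells. The proteasome cuts proteins into peptides, and its interferon-induced subunits PSMB8 and PSMB9 take the place of the constitutive subunits PSMB5 and PSMB6. The transporter TAP1–TAP2 moves the peptides into the endoplasmic reticulum, where the aminopeptidase ERAP1 trims them and tapasin, the product of Tapbp, helps to load them onto a heavy chain such as H2-K1 or H2-D1 paired with β2-microglobulin (B2m). NLRC5 is the transactivator of class I genes, and both type I and type II interferons are known to induce much of the pathway. In tumors, type 1 dendritic cells are known for presenting material taken up from other cells on class I molecules.

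Of the 10 genes, 7 lie on chromosome 17 in the mouse MHC or beside it (GRCm38, GENCODE M21). Psmb9 (chr17:34181987-34187764, minus strand) and Tap1 (chr17:34187553-34197225, plus strand) overlap head to head, and Psmb8 (chr17:34197721-34201454) and Tap2 (chr17:34203527-34216321) follow on the plus strand. H2-K1 (chr17:33996017-34000347, minus strand), Tapbp (chr17:33915899-33929292, plus strand) and H2-D1 (chr17:35262730-35267499, plus strand) lie on either side. B2m (chr2:122147686-122153083), Nlrc5 (chr8:94434356-94527272) and Erap1 (chr13:74639568-74693201) are on other chromosomes, all on the plus strand. The short overlap of Psmb9 and Tap1 lies at their 5′ ends, while reads were counted at 3′ ends. BALB/c mice carry the d haplotype of the MHC while the reference comes from C57BL/6, and class I heavy chain genes are related in sequence to degrees that were not measured here, so counts of H2-K1, H2-D1 and the H2-Q and H2-T genes are uncertain.

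Promoter windows of 300 bases, from 250 bases before to 50 bases after the RefSeq start site (GRCm38.p6), were found for 8 of the 10 genes, all but Tap2 and Nlrc5. They were searched on both strands for 7 short motifs of interferon-regulated and class I promoters. The stretches from B2m and H2-K1 are shown because they hold matches to interferon and NF-κB motifs within a short distance and overlap no annotated exon. Capitals mark the matches. The B2m stretch is chr2:122147487-122147667 on the plus strand, 200 to 20 bases before the start site, and the H2-K1 stretch is chr17:34000377-34000517 read on the minus strand, 170 to 30 bases before it.
B2m: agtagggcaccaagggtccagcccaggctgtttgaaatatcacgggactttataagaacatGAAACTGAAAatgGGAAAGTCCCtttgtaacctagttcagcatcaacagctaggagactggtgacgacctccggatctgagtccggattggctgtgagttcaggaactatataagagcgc
H2-K1: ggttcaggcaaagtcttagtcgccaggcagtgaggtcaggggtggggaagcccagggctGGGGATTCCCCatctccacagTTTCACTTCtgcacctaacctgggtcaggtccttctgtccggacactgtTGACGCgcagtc

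In B2m, a match to the interferon-stimulated response element (GAAA, any 2 bases, GAAA) lay beside a match to an NF-κB motif (GGG, any 2 bases, TTTCC) read on the other strand. In H2-K1, the NF-κB palindrome, the first run of capitals in its line above, lay upstream of TTTCACTTC, which is the class I interferon response core GAAGTGAAA on the other strand, and of the X2 box core TGACGC. The H2-D1 window held these same 3 matches, and both H2-K1 and H2-D1 also held the inverted CCAAT motif CTGATTGG. The window that Psmb9 and Tap1 share between them held CTGATTGG, Psmb8 held the gamma-activated site TTCCNNGAA, Erap1 held the interferon-stimulated response element, and Tapbp held no match. Among 32851 promoter windows of the same length, the interferon-stimulated response element was found in 3.44%, GAAGTGAAA in 0.505%, TTCCNNGAA in 4.81%, the NF-κB motif of B2m in 1.63%, the palindrome of H2-K1 in 0.0304%, TGACGC in 7.4% and CTGATTGG in 4.1%. These are matches of letters in the C57BL/6 reference and say nothing of binding in these cells. The motifs were chosen as ones of class I and interferon-regulated promoters, and the windows of these genes are counted in the shares. The matches are therefore a description and no independent finding.

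Barcodes were sorted by raw UMI counts of a few genes into groups called gates here, and the level of a gene is its UMIs per 1000000 UMIs (counts per 1000000, CPM) of a gate in a library with at least 10 barcodes of that gate, or at least 3 where gates were limited to few macrophage UMIs. Macrophages (Csf1r plus Adgre1 of 3 or more, and not counted in another gate) made up 5232 barcodes. They were split into 1597 Rsad2 macrophages, with at least 2 UMIs of Rsad2 (viperin, an antiviral gene induced by type I interferon), 624 with 1 such UMI that were set aside, and 3011 without Rsad2. The macrophages without Rsad2 were divided further into 1658 C1qa macrophages (C1qa of 10 or more, Ly6c2 of at most 2), 452 Ly6c2 macrophages (Ly6c2 of 3 or more, C1qa of at most 9), 306 with both and 595 with neither. C1qa encodes a complement subunit of mature macrophages, and Ly6c2 is a marker of recently arrived monocytes. The other gates were type 1 dendritic cells (Xcr1 plus Clec9a; 158 barcodes), other dendritic cells (Flt3; 121), T cells (292), NK cells (322), B cells (72) and a gate on S100a9, a calgranulin of neutrophils and monocytes (1049), while 1989 barcodes stayed in no gate. Barcodes of the S100a9 and type 1 dendritic gates each had a median of 10 UMIs of Csf1r plus Adgre1 and were not counted as macrophages.

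The gates were checked against markers. The T and NK gates had been limited to at most 1 UMI of Csf1r plus Adgre1, so low macrophage markers there are no check of them. The summed level of 9 macrophage markers had medians of 11277 to 14872 CPM in the 5 macrophage gates, and was 688 CPM in NK cells and 1309 CPM in T cells. It was 12519 CPM in the S100a9 gate (lowest library 8696, highest 13969), as high as in macrophages, although 6 neutrophil markers also stood at 2038 CPM there against 60.8 CPM in C1qa macrophages, so this gate is called by its gene and not by a cell type. Macrophage markers also reached 7930 CPM in type 1 dendritic cells (3387 to 11112), where only 40 of 158 barcodes had at most 1 UMI of Csf1r plus Adgre1, and 7537 CPM in B cells, where 39 of 72 did. Markers of type 1 dendritic cells reached 1975 CPM in their own gate, 2044 CPM in other dendritic cells and 2040 CPM in NK cells, so this list alone did not set that gate apart. Other dendritic cells, gated on 1 UMI or more of Flt3, had 1744 CPM of 5 general dendritic markers. They also had 1539 CPM of 4 plasmacytoid dendritic markers (960 to 2521), against 361 CPM in type 1 dendritic cells (120 to 845). The other dendritic gate thus holds markers of more than 1 kind of dendritic cell. Lymphocyte counts were found in 22.4% of macrophage barcodes. Library totals ran from 11492757 to 33902084 UMIs with 7270 to 16125 UMIs per barcode by the median, the gates differed in depth (5516 UMIs in T cells, 25148.5 in type 1 dendritic cells), and 16 barcode sequences occurred in 2 libraries.

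All 10 genes were measured in all 11 gates. H2-D1, H2-K1 and B2m had gate medians of 2025 to 3267 CPM, Psmb8, Psmb9, Tapbp and Tap1 had medians between 139 and 1068 CPM, and Tap2, Erap1 and Nlrc5 stayed between 19.8 and 152 CPM. Counts at the 3′ end do not grow with gene length, so these levels were read without a length correction. In what follows, the highest and lowest of the 11 gates were picked by their medians, a choice that favours gaps between them. The share of all genes with such gaps was not taken, so a lack of overlap in these orders is a description only.

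The heavy chains and their light chain varied little between gates. H2-K1 ran from 2025 CPM in macrophages with neither C1qa nor Ly6c2 (lowest library 1801, highest 2556) to 2848 CPM in other dendritic cells (2182 to 3591), a 1.41-fold difference with overlapping libraries. H2-D1 spanned a still smaller range, from 2744 CPM in B cells to 3267 CPM in Rsad2 macrophages, 1.19-fold and again overlapping. B cells had values from 3 libraries only (suffixes 5, 7 and 8) and other dendritic cells from 5. Orders and folds that involve these gates, here and below, therefore set unlike libraries against each other. B2m was highest in Rsad2 macrophages at 2815 CPM (2628 to 4088) and lowest in NK cells at 2046 CPM (1806 to 2554), and here the libraries of the 2 gates did not overlap. Between neighbours in the order of the 11 gates, no step in H2-K1, H2-D1 or B2m exceeded the spread between libraries.

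The transporter and loading genes differed more. Tap1 was highest in type 1 dendritic cells at 332 CPM (315 to 369) and lowest in NK cells at 139 CPM (119 to 178), a 2.39-fold difference without overlap. The step from NK cells to C1qa macrophages, the next gate at 215 CPM (188 to 225), was also free of overlap, while no other step in Tap1 was. Tap2 had its highest level in Ly6c2 macrophages at 152 CPM (112 to 167) and its lowest in B cells at 79.6 CPM (34.7 to 102.7). Tapbp was likewise highest in Ly6c2 macrophages at 472 CPM (365 to 569) and lowest in NK cells at 228 CPM (184 to 276), 2.07-fold apart without overlap. Erap1 lay at 52.8 CPM in Ly6c2 macrophages (31.3 to 56.2) and at 25.3 CPM in B cells (11.4 to 28.9), which rests on 14 UMIs, and was between 37.5 and 49.4 CPM in the other 9 gates.

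Psmb8 and Psmb9, subunits of the immunoproteasome, had their highest medians in the dendritic gates, of which the other dendritic gate also held plasmacytoid markers. Psmb8 reached 1068 CPM in other dendritic cells (624.9 to 1479.5) and 818 CPM in type 1 dendritic cells (637 to 970), against 519 CPM in macrophages with neither marker (340 to 623). Ly6c2 macrophages, at 706 CPM (645 to 844), and T cells, at 684 CPM (463 to 858), overlapped both dendritic gates. Psmb9 reached 496 CPM in type 1 dendritic cells (449 to 640.4) and 432 CPM in other dendritic cells (292 to 713), against 220.3 CPM in macrophages with neither marker (195 to 354). The highest and lowest gates of Psmb9 did not overlap, while those of Psmb8 did, since the lowest library of other dendritic cells (suffix 5, at 624.9 CPM) lay just under the highest of B cells (suffix 7, at 629.7 CPM). Psmb10, a further inducible subunit outside the 10 genes, was at 317 CPM in other dendritic cells (164 to 327) and 259.7 CPM in type 1 dendritic cells (197 to 298), overlapping Ly6c2 macrophages at 308 CPM (239 to 419).

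Nlrc5, the transactivator, was the only one of the 10 whose highest median lay in T cells, at 58.6 CPM (43.1 to 75.2). Its lowest was in NK cells, at 19.8 CPM (16.4 to 81.3), so the libraries of these gates overlapped. In NK cells, 5 libraries lay at 27.1 CPM or below and the library with suffix 5 at 81.3 CPM, a value from 10 UMIs in 22 barcodes. Summed over libraries, Nlrc5 had 59.3 CPM in T cells (95% exact Poisson interval 49.7 to 70.2, for counting error only, from 134 UMIs) and 23.03 CPM in NK cells (17.8 to 29.3, from 66 UMIs), intervals that leave out the spread between libraries. A split of the T gate chosen after seeing the data gave 62.8 CPM of Nlrc5 in barcodes with Cd8a or Cd8b1 (50.2 to 77.6), 59.2 CPM in those with Cd4 (39.9 to 84.5) and 46.9 CPM in those with neither (27.8 to 74.1), with intervals that overlap. Other genes differed within the T gate by the same split. H2-D1 had 2834 CPM in Cd8a or Cd8b1 barcodes (libraries 2196 to 3223) and 4266 CPM in those with neither (3597 to 4662), and Tapbp had 203 CPM (156 to 216) and 328 CPM (294 to 492.55), in each case without overlap. Barcodes with Cd4 overlapped both of these groups, at 3507 CPM of H2-D1 (3063 to 4727) and 310 CPM of Tapbp (152 to 360). The share of all genes without overlap in this split was not taken, so these gaps are a description only. The groups were small (132 barcodes with Cd8a or Cd8b1, 73 with Cd4, 87 with neither) and were not evened out in depth.

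**Figure D1:**
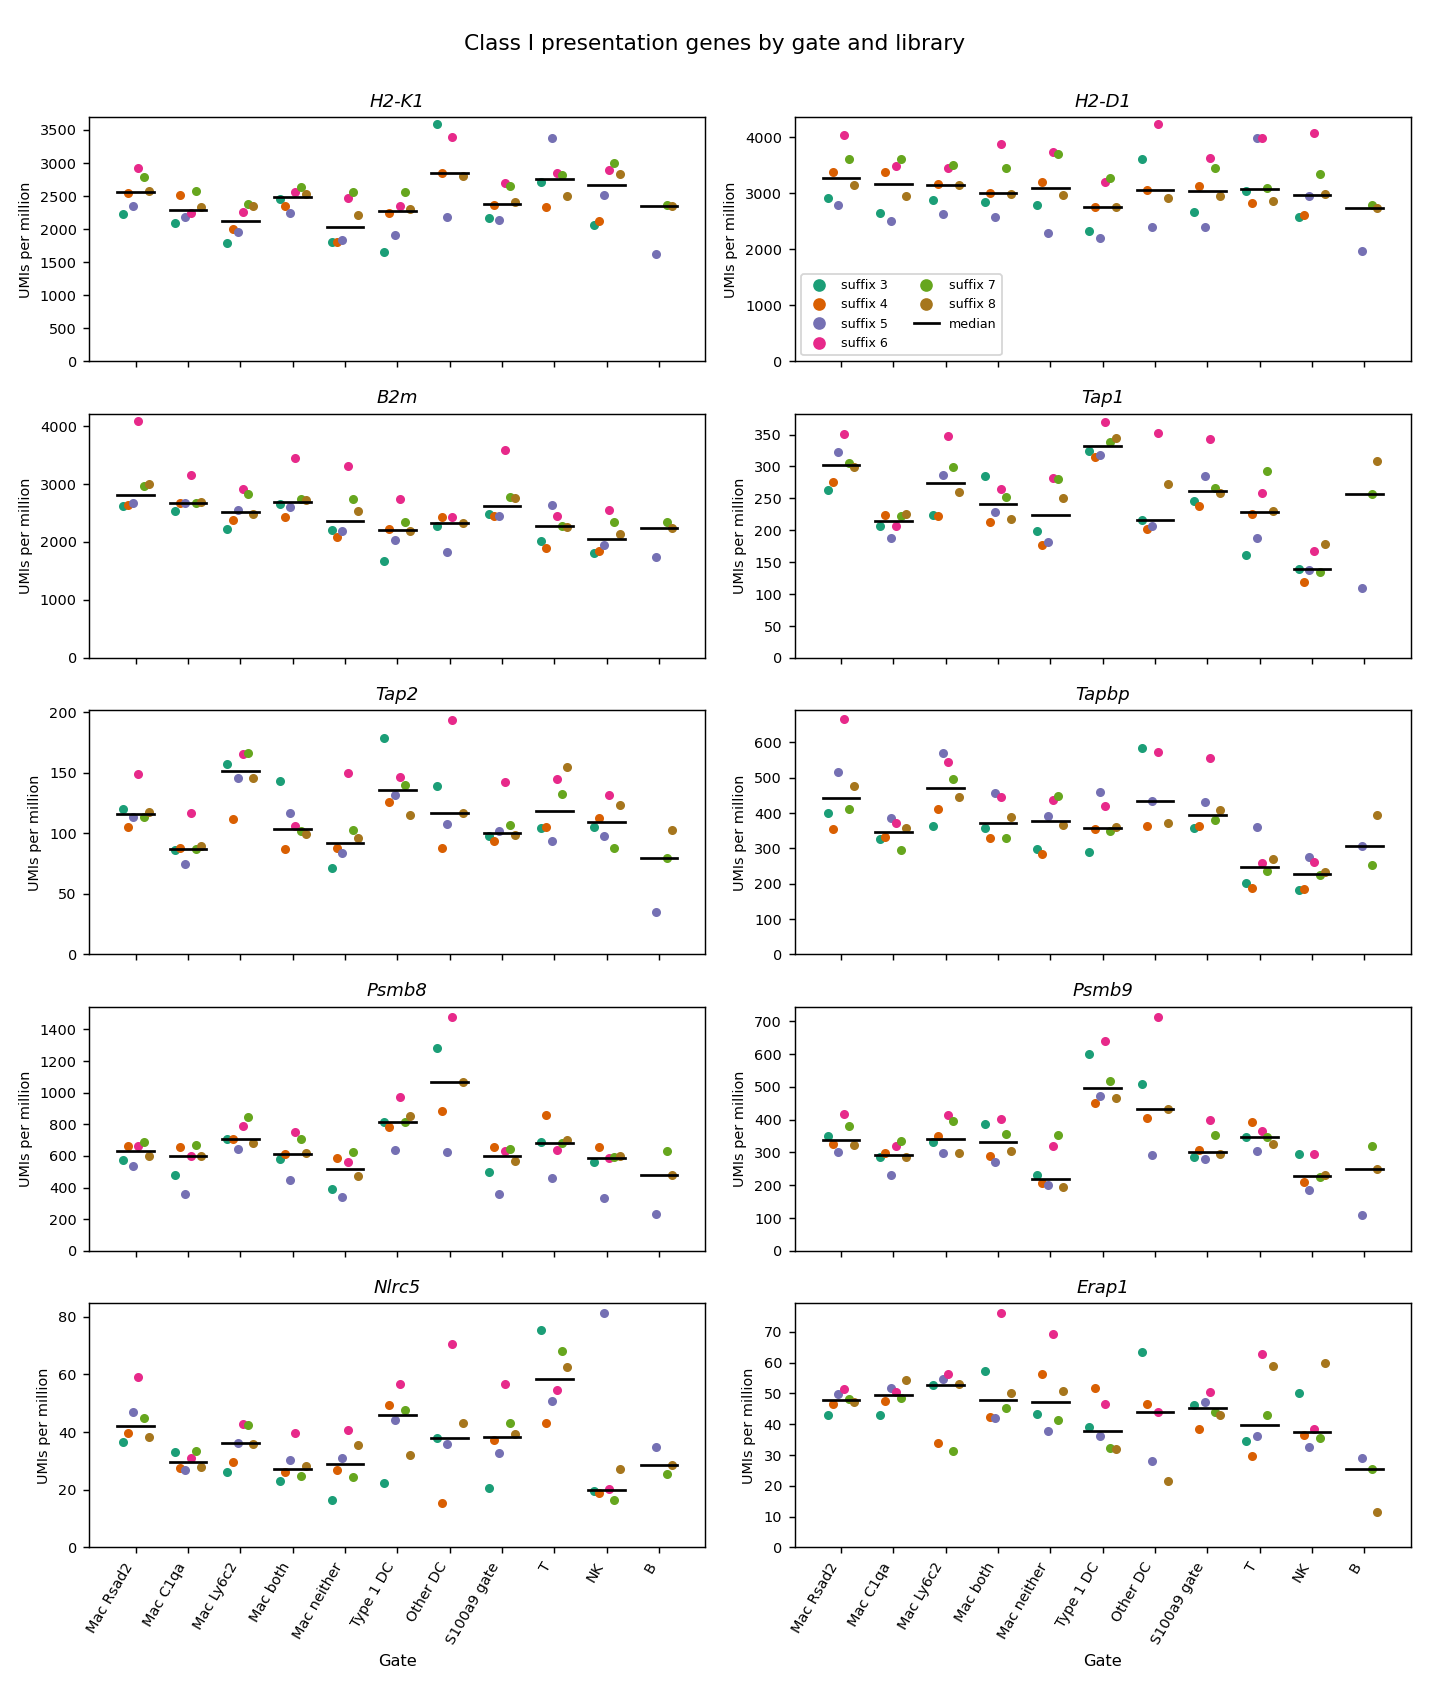
Level of each of the 10 genes (UMIs per 1000000 UMIs, linear axis from 0) in 11 gates, with a point for each library (colour gives the barcode suffix) and a bar at the median. H2-K1, H2-D1 and B2m stay between 2025 and 3267 by the median in every gate, Tap1 and Tapbp are low in NK cells, Psmb8 and Psmb9 have their highest medians in dendritic gates, and suffix 6 often lies on top.

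Rsad2 macrophages were compared with macrophages without Rsad2 within each library. A gene was called where the median ratio over libraries was at least 1.5, or at most the inverse, with the same direction in every library. All 10 genes passed the minimum of 10 CPM here and in the comparisons that follow. None of the 10 genes was called, against 1.57% of 7638 genes called higher and 1.68% called in either direction. Yet 8 of the 10 were higher in every library, against 9.65% of all genes, and their median ratio was 1.13 against 0.98 over all genes. That count of 8 was 3 with gates set on barcodes thinned to 3000 UMIs, against 3.08% of all genes. It was 6 within macrophages of the C1qa kind, against 7.38%, and 5 within those of the Ly6c2 kind, against 4.31%.

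Nlrc5 moved most, from 29.4 CPM without Rsad2 (27.2 to 37.1) to 42.3 CPM with it (36.6 to 59.1), a ratio of 1.42 (1.27 to 1.63 over libraries). Each library was higher in its own Rsad2 macrophages, although the 2 groups touched across libraries. Tap1 went from 225 CPM (199 to 269) to 302 CPM (263 to 351), a ratio of 1.28 (1.23 to 1.62), and Tapbp from 356 CPM (327 to 446) to 444 CPM (355 to 666), a ratio of 1.25 (1.07 to 1.49). Tap2 followed with 1.18 (1.09 to 1.31) and Psmb9 with 1.16 (1.09 to 1.28), both higher in 6 of 6 libraries. The abundant genes moved less, with ratios of 1.09 for H2-K1 (1.06 to 1.26), 1.08 for B2m (1.04 to 1.31) and 1.07 for H2-D1 (1.01 to 1.14). Psmb8, at 1.02 (0.98 to 1.38), was higher in 4 libraries and Erap1, at 0.98 (0.89 to 1.07), in 3, so neither had a direction.

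**Figure D2:**
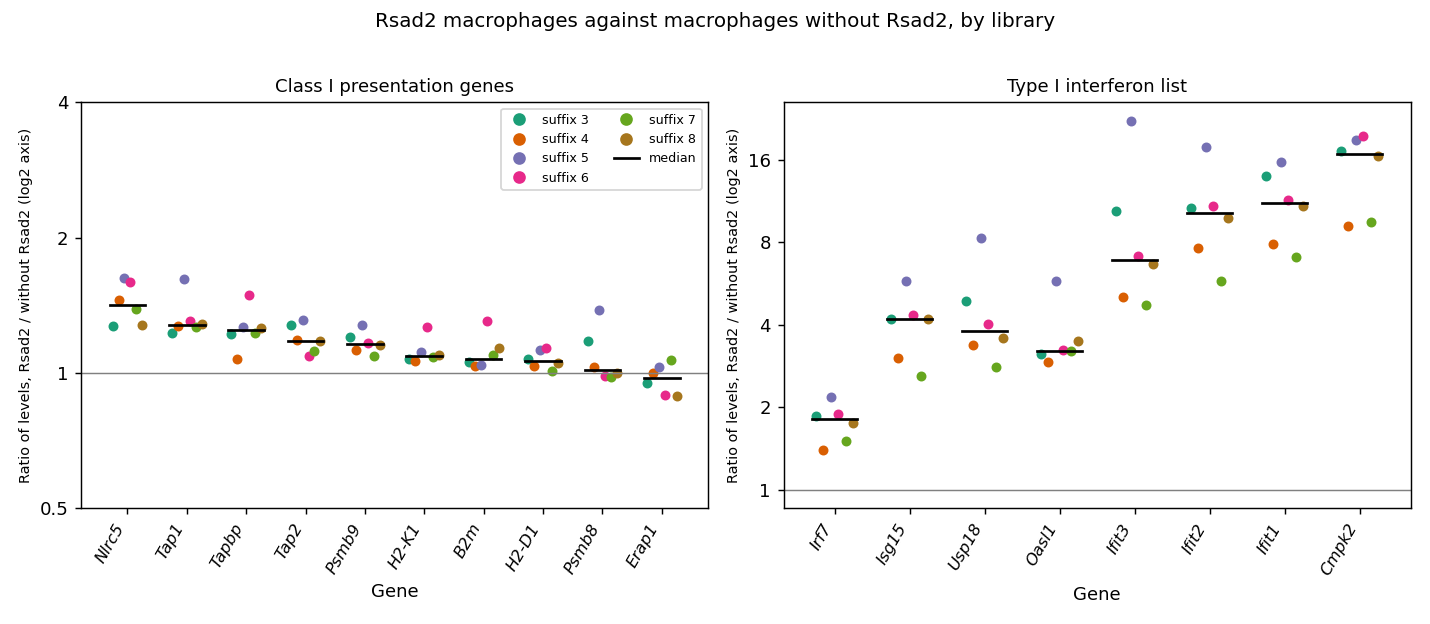
Ratio of the level in Rsad2 macrophages to that in macrophages without Rsad2 within each library (log2 axis; points are libraries by barcode suffix, bars are medians). All 6 points lie above 1 for 8 genes, from H2-D1 at a median of 1.07 to Nlrc5 at 1.42, while Psmb8 and Erap1 straddle 1.

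The other genes of the pathway were read in the same comparison. Of 29 listed genes, 27 passed the minimum of 10 CPM, and 1 was called, H2-T24, at 1.66. Among the other class I heavy chains, 5 of 7 were higher in every library, including H2-T22 at 1.32 and H2-Q7 at 1.16. In the transcription group, Irf1 (1.32), Irf8 (1.26) and Irf2 (1.2) were higher in every library, and Ciita, the class II transactivator, stood at 0.98. Psmb10, the remaining inducible catalytic subunit of the proteasome, stood at 0.99, and the activator subunits Psme1 and Psme2 at 1.04 and 1.05, with no constant direction. Psmb7 (0.89) and Pdia3 (0.89), a constitutive proteasome subunit and a chaperone of the loading complex, were lower in every library. For scale, type I interferon genes, which the choice of Rsad2 bears on directly, differed by 16.9-fold for Cmpk2, 11.1-fold for Ifit1, 4.22-fold for Isg15 and 1.81-fold for Irf7. Of genes known for induction by type II interferon, Gbp5 (1.69), Igtp (1.58) and Gbp6 (1.56) were called higher, while Cxcl9 (0.99) was higher in 3 libraries.

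Depth and mixed barcodes moved with the split. Rsad2 macrophages had 16208 UMIs per barcode by the median against 13772, and 29.1% of them had lymphocyte counts against 19.2%. Leaving out barcodes with lymphocyte counts or of more than 1 gate gave ratios of 1.46 for Nlrc5 and 1.31 for Tap1. In alternatives chosen after seeing the data, within macrophages of the C1qa kind (558 with Rsad2, 1658 without) Nlrc5 stood at 1.39 and Tap1 at 1.27, and within those of the Ly6c2 kind (460 and 452) at 1.47 and 1.21, so both ratios were about as large within each kind. Tap2 was 1.21 within the former and 0.96 within the latter, where it was higher in 1 of 6 libraries. Within the Ly6c2 kind Tapbp (1.15) was higher in 5 libraries and Psmb9 (1.09) in 4, and within the C1qa kind H2-D1 (1.09) and B2m (1.05) were higher in 5 each. With gates set on barcodes thinned to 3000 UMIs, which evens out depth, Nlrc5 (1.70) and Tapbp (1.64) were called higher, where 4.46% of genes were called in either direction, and Tap1 (1.40) was the only other gene higher in every library. H2-K1 (1.08) and B2m (1.14) were then higher in 5 libraries, H2-D1 (1.09) in 4, Tap2 (1.17) and Psmb9 (0.997) in 3, and Erap1, at 0.53, in 1.

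C1qa and Ly6c2 macrophages differed by 1 call among the 10 genes. Tap2 was lower in C1qa macrophages, at 87.5 CPM (74.9 to 117) against 152 CPM (112 to 167), a ratio of 0.58 (0.51 to 0.78). This stood against 6.47% of genes called lower and 15.2% in either direction, and the libraries of the 2 gates overlapped narrowly. Tapbp, at 346 against 472 CPM (0.74), Psmb8, at 602 against 706 CPM (0.78), and Psmb9, at 293 against 341 CPM (0.85), were below 1 in every library, as were 13.6% of all genes. Tap1 (0.80) and Nlrc5 (0.78) were higher in C1qa macrophages in 1 library each. H2-K1 (1.10) and B2m (1.08) leaned the other way without a call, and the 10 genes had a median ratio of 0.83 against 1.04 over all genes.

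Neighbouring genes of the pathway gave values in both directions. Called lower in C1qa macrophages were 5 genes, the interferon receptor genes Ifngr1 (0.57), Ifnar1 (0.57) and Ifnar2 (0.65) and the transcription factors Irf1 (0.59) and Irf2 (0.53). Psme1 (0.74) and Psme2 (0.68) were lower in every library, and the chaperones Canx (1.14) and Pdia3 (1.2) and the constitutive subunit Psmb6 (1.2) were higher in every library. With the macrophage gate raised to at least 6 UMIs of Csf1r plus Adgre1, the ratio of Tap2 was 0.67 and the call was lost. Depth differed between the gates, with 16525 UMIs per barcode in C1qa and 9937 in Ly6c2 macrophages. On barcodes thinned to 3000 UMIs, 4 libraries filled both gates, and Tap2 (0.44) and Tapbp (0.62) were called lower in C1qa macrophages, where 15.9% of genes were called in either direction.

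Type 1 dendritic cells differed from macrophages without Rsad2 by 1 call among the 10 genes. Psmb9 was called higher, at 496 CPM (449 to 640.4) against 290.5 CPM (235 to 359), a ratio of 1.73 (1.49 to 2.06) with no overlap between the gates, where 3.17% of genes were called higher and 8.53% in either direction, so 1 of 10 is near the share over all genes. Tap1, at 332 against 225 CPM, had a ratio of 1.47 (1.37 to 1.60), also without overlap. Psmb8 (1.43, 1.17 to 1.67) and Tap2 (1.40, 1.07 to 1.91) were higher in 6 of 6 libraries as well, where 8.67% of genes were higher in every library. H2-D1 (0.90) and B2m (0.85) were lower in every library, as were 12.8% of genes, and H2-K1, Tapbp and Erap1 (0.78, higher in 1 library) had no constant direction. Nlrc5 stood at 1.5 and was lower in the library with suffix 3, and it was called at 1.53 without that library. Of 27 other pathway genes above the minimum, 2 were called higher and 0 lower. Ciita (2.76) and Irf8 (2.21) were the called ones, while Psme1 (1.34) was higher in every library, and Psmb10 (0.97) had no constant direction. Irf8 is a listed marker of these cells, but it was also called higher in NK cells, so it does not set them apart.

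Macrophage transcripts were abundant in the type 1 dendritic gate, so the comparison was repeated, after seeing the data, on its 40 barcodes with at most 1 UMI of Csf1r plus Adgre1, in libraries with at least 3 of them. There the macrophage markers stood at 1428 CPM, and Psmb9 (2.25) and Psmb8 (1.85) were called higher and B2m (0.58) lower, where 20.8% of genes were called in either direction. Tap1 stood at 1.51 and Tap2 at 1.40, each higher in 5 of 6 libraries. Nlrc5 turned to 0.47 there, higher in 2 of 6 libraries and resting on 18 UMIs, and Erap1 stood at 0.43, higher in 1, from 16 UMIs. Set against other dendritic cells in the 5 libraries that held enough of both, type 1 dendritic cells had 325 CPM of Tap1 (315 to 369) against 216 CPM (202 to 352), a ratio of 1.51 (1.05 to 1.56) that was called, where 10.9% of genes were called higher. That call did not hold without the library with suffix 3 (1.40), 4 (1.38) or 5 (1.38). It was also lost when only the minimum was lowered to 3 barcodes, which added the library with suffix 7, at a ratio of 1.38 that was above 1 in 6 of 6 libraries, where 14.5% of genes were called in either direction. With that minimum and the 40 barcodes with few macrophage UMIs together, Tap1 was 1.47 and higher in 4 of 6 libraries, and H2-K1 was called lower, at 0.64, where 8.15% of genes were called, so 1 of 10 is near the share over all genes. In the same 40 barcodes without the added library, Tap1 was 1.52 and higher in 4 of 5, while H2-K1 (0.62) was called lower and Psmb9 (1.52) higher, where 12.2% of genes were called. In the whole gate and the 5 libraries H2-K1 (0.79) and H2-D1 (0.90) were lower in type 1 dendritic cells in 5 of 5 libraries, as were 8.94% of genes, Psme2 (0.53) and Ifnar1 (0.55) were called lower, as were 6.88% of genes, and Calr (1.74), the chaperone calreticulin, higher.

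In T cells, Nlrc5 was called higher than in macrophages without Rsad2, at 58.6 CPM (43.1 to 75.2) against 29.4 CPM (27.2 to 37.1), a ratio of 1.92 (1.47 to 2.61) without overlap. Tapbp was called lower, at 248 CPM (188 to 362) against 356 CPM (327 to 446), a ratio of 0.66 (0.57 to 0.89), and it differed within the T gate as given above. These are calls in a comparison in which 13.8% of genes were called higher and 19.7% lower. Tap2 was the only other one of the 10 with a constant direction, higher at 1.15, as were 18.9% of genes. Of 27 other pathway genes, 5 were called higher and 6 lower. The other heavy chains H2-Q7 (2.54), H2-Q4 (2.04), H2-Q6 (1.66) and H2-T22 (1.63) were called higher and H2-T24 (0.45) lower, and Psmb10 (0.57), Psmb6 (0.65) and Ciita (0.35) were called lower. The ribosomal protein gene Rpl13a, read as a housekeeping gene, stood at 1.97 in the same comparison, and with mitochondrial and ribosomal protein genes taken out of the total Tapbp was 0.74 and no longer called. The call of Tapbp was also lost, at 0.70, without the library with suffix 3, 4 or 6, on barcodes thinned to 3000 UMIs (0.74), with a macrophage gate of at least 6 UMIs (0.668) and without the deepest 5% of barcodes (0.679), and the ratio was below 1 in every library each time.

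In NK cells 2 of the 10 genes were called lower than in macrophages without Rsad2, near the 24.4% of all genes called lower. Tap1 was one of them, at 139 CPM (119 to 178) against 225 CPM (199 to 269), a ratio of 0.64 (0.55 to 0.76), and Tapbp likewise, at 228 CPM (184 to 276) against 356 CPM (327 to 446), a ratio of 0.60 (0.56 to 0.68). Neither overlapped between the gates. B2m, at 0.78, was lower in every library, as were 28.9% of genes, and was not called. Of 27 other pathway genes, 5 were called higher and 6 lower. Among them, H2-Q4 (1.85), H2-Q7 (1.68), Ifngr1 (4.95) and Irf8 (4.19) were called higher, and Irf1 (0.43), H2-M3 (0.53) and H2-T24 (0.35) lower, where 13.5% of all genes were called higher. Rpl13a stood at 1.76 here, and without mitochondrial and ribosomal protein genes in the total Tap1 was 0.71 and not called while Tapbp was 0.66 and was called. On barcodes thinned to 3000 UMIs Tap1 kept a ratio of 0.64 but was higher in 1 library, so it was not called there.

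The S100a9 gate differed little from macrophages without Rsad2. Its macrophage markers stood as high as in macrophages, so this comparison cannot show how neutrophils differ from them. None of the 10 genes was called, where 2.0% of genes were called in either direction, and Tap1 (1.13) and Tapbp (1.10) were higher in every library, as were 8.48% of genes. Restricted after seeing the data to its 90 barcodes with at most 1 UMI of Csf1r plus Adgre1, where the macrophage markers still stood at 6110 CPM, and to libraries with at least 3 of them, Erap1 was called lower at 0.44 from 16 UMIs, where 14.7% of genes were called. Leaving out barcodes of more than 1 gate, or with lymphocyte counts in the macrophage gate, left 3 libraries. None of the 10 genes was called there, where 29.5% of genes were called. Of the 10, 3 were then higher in every library, against 15.7% of all genes.

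B cells filled the gate in only 3 libraries. Erap1 was called lower, at 25.3 CPM (11.4 to 28.9) against 48.5 CPM (45.2 to 53.3), a ratio of 0.56 from 14 UMIs in B cells, where 11.6% of genes were called lower. In all 3 libraries 6 of the 10 genes were lower, as were 25.3% of genes, and Tap2 was also called, at 0.59, without the library with suffix 8. With whole gates of at least 3 barcodes, all 6 libraries entered, Erap1 was 0.67 and higher in 1, and none of the 10 was called, where 6.9% of genes were called in either direction. In the 39 barcodes with few macrophage UMIs, in 5 libraries with at least 3 of them, B2m (0.64) and Tapbp (0.44) were called lower, where 29.5% of genes were called, and Erap1 had 3 UMIs, too few for a fold. In the 3 libraries that filled the whole gate, these barcodes gave Tapbp (0.39) and Psmb8 (0.57) as called lower, where 41.8% of genes were called. Nlrc5 was called lower there too, but had at most 3 UMIs, too few for a fold.

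The balance of inducible to constitutive proteasome subunits was taken as a ratio of UMIs within each gate and library, which does not depend on the total. Psmb8 exceeded Psmb5 in every gate, by 5.09 to 1 in other dendritic cells (3.80 to 7.06), 4.18 in type 1 dendritic cells (3.16 to 4.86) and 2.53 in macrophages with neither marker (2.09 to 3.45). Psmb9 to Psmb6 was 2.13 in other dendritic cells (1.86 to 3.52), 1.98 in type 1 dendritic cells (1.40 to 2.74) and 1.79 in T cells (1.5 to 3.23). It was 1.39 in Ly6c2 macrophages (1.19 to 1.64) and 0.998 in C1qa macrophages (0.776 to 1.05), which do not overlap, and 0.815 in B cells. For Psmb10 to Psmb7 the order differed, with Rsad2 macrophages at 2.88 (2.45 to 3.60), C1qa macrophages at 2.29 (1.98 to 2.86) and T cells at 1.95 (1.17 to 3.67), all overlapping. Because 3′ counts of unlike transcripts are compared, the ratios are read across gates and not as numbers of subunits.

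**Figure D3:**
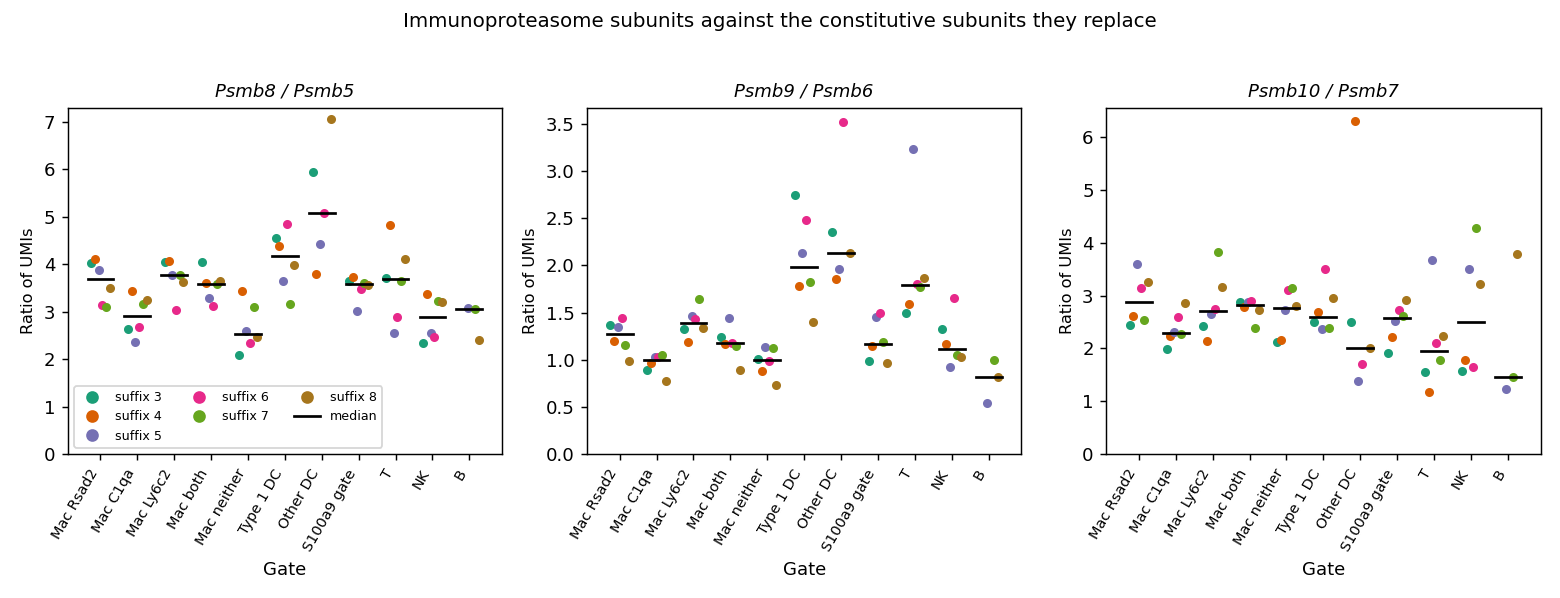
UMIs of an inducible proteasome subunit over those of its constitutive counterpart (Psmb8 to Psmb5, Psmb9 to Psmb6, Psmb10 to Psmb7) in each gate and library, with bars at the median. The first 2 ratios are highest in the dendritic gates, at 5.09 and 2.13 in other dendritic cells, and the last is not.

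Within macrophages, the 10 genes were set against summed scores of type I genes (9 of 10 listed genes in the matrix: Rsad2, Ifit1, Ifit2, Ifit3, Isg15, Oasl1, Irf7, Usp18 and Cmpk2) and of 10 type II genes (among them Gbp2, Gbp3, Gbp5, Gbp6, Irf1, Iigp1, Igtp, Cxcl9 and Ciita), none of which is one of the 10. All 5186 barcodes deep enough were thinned to 3000 UMIs, so that depth was equal. Spearman correlations over barcodes were weak throughout, with a median over the 10 genes of 0.117 with the type I and 0.161 with the type II score. These medians moved with the depth kept, to 0.0751 and 0.0787 at 1000 UMIs and to 0.153 and 0.185 at 5000 UMIs. For each score 9 of the 10 were positive in every library, against 6.26% and 9.35% of 7519 genes. Tap1 had the largest value, 0.21 with the type II score (0.19 to 0.29), and Erap1 had the smallest with each score, at -0.03 with type I, positive in 1 of 6 libraries, and 0.01 with type II, positive in 4. Barcodes of a library share its preparation, and the 2 scores were themselves correlated at 0.19, so these values are a description only.

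The sizes were clearer between quartiles of barcodes by score, a reading added after seeing the data. From the lowest to the highest type II quartile, Tap1 went from 195 to 377 CPM, a ratio of 1.93 (1.75 to 2.79), and Tap2 from 70.8 to 138 CPM, a ratio of 1.91 (1.33 to 2.23). Psmb9 went from 221 to 406 CPM (1.73, 1.05 to 2.23), Psmb8 from 487 to 694 CPM (1.55, 1.06 to 2.25) and Nlrc5 from 26.4 to 51.4 CPM (1.77, 1.09 to 8.20). These 5 of the 10 were called higher, against 3.95% of genes, and 9 of the 10 were higher in every library, against 8.44%. The highest ratio of Nlrc5 came from the library with suffix 5, with 41 UMIs against 5, and the call of Psmb8 was lost, at 1.44, without the library with suffix 3, 5 or 8. Tapbp (1.48), H2-K1 (1.25), H2-D1 (1.2) and B2m (1.18) were higher in every library without a call, and Erap1 (1.01) was higher in 3.

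Other pathway genes were read in the same type II quartiles. Of 24 other pathway genes above the minimum, 5 were called higher, namely Psmb10 (1.72), Psme2 (1.61), H2-T23 (1.89), H2-T24 (2.28) and Irf8 (1.63). Psme1 (1.41), H2-T22 (1.37) and Irf2 (1.42) were higher in every library without a call, and H2-Q6 (1.06) and H2-Q7 (1.16) had no constant direction. The constitutive subunits Psmb5 (1.0), Psmb6 (0.86) and Psmb7 (0.94) had no constant direction, and the housekeeping gene Gapdh (0.71) was lower in every library. By the type I score 2 of the 10 were called, Nlrc5 at 1.67 (1.14 to 2.14) and Tapbp at 1.56 (1.21 to 1.74), against 2.76% of genes. Tap1 (1.48), Tap2 (1.43), Psmb9 (1.38) and Psmb8 (1.23) were among the 9 higher in every library, against 6.15%, and Erap1 (0.81) was higher in 1 of 6. Tap1 was called as well, at 1.55, without the library with suffix 3, 4 or 6, and Tap2, at 1.5, without the library with suffix 3, 7 or 8. Of 25 other pathway genes above the minimum, 4 were called higher by the type I score, H2-T24 (2.80), H2-T22 (1.64), H2-T23 (1.58) and Irf2 (1.53). The housekeeping genes Ppia (0.82) and Rpl13a (0.75) were lower in every library by that score. Within libraries, the ratio by the type II score exceeded that by the type I score in 6 of 6 for Tap1 and Psmb8, in 3 of 6 for Nlrc5 and Tapbp, and in 2 of 6 for B2m. The scores spanned unlike ranges, from 0.0 to 8.81 UMIs between the mean type I score of the lowest and highest quartiles and from 1.54 to 17.4 for type II.

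**Figure D4:**
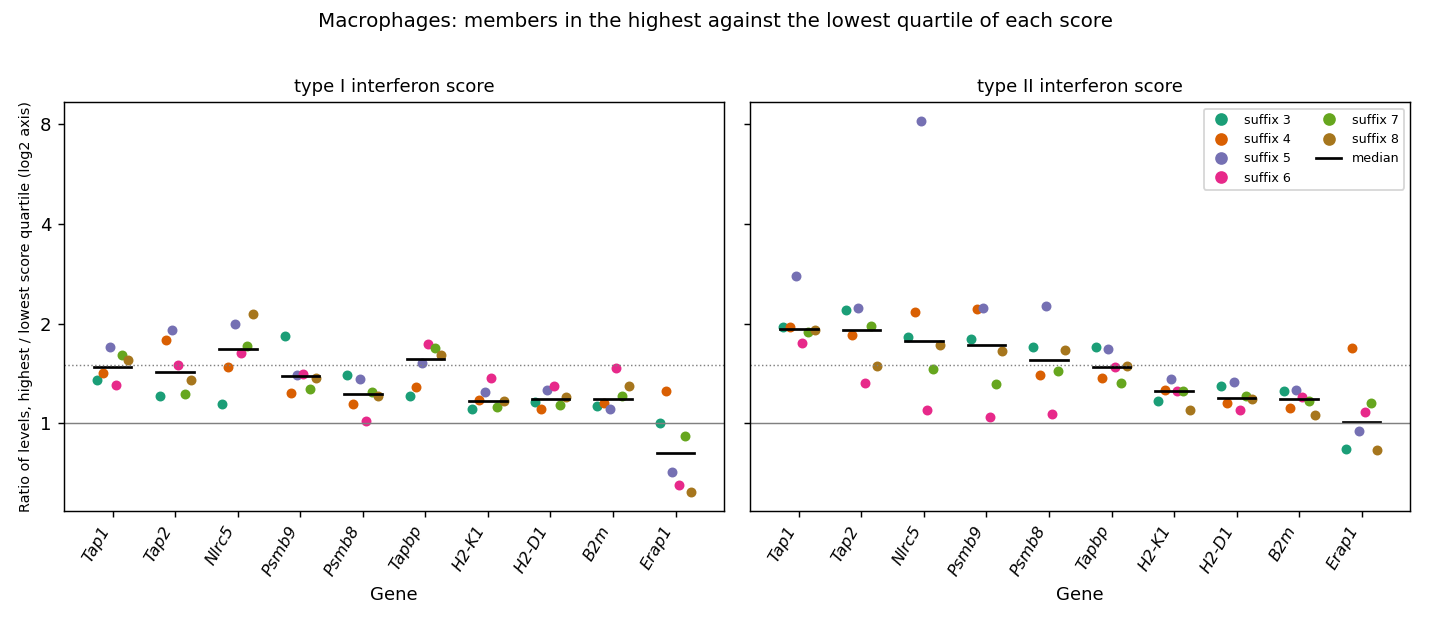
Ratio of the level in the highest to that in the lowest quartile of macrophage barcodes by type I score (left) or type II score (right), within each library (log2 axis; points are libraries by barcode suffix, bars are medians, the dotted line is the 1.5-fold threshold). Tap1, Tap2, Nlrc5, Psmb9 and Psmb8 lie above the threshold by the median on the right, Nlrc5 and Tapbp on the left, and Erap1 lies at 1.01 and 0.81.

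Some libraries stood apart for several of these genes. The library with suffix 6 had the most Rsad2 macrophages, 59.8% of its macrophage barcodes against 14.4% to 33.6% in the other 5, and the highest B2m in 8 of the 9 gates filled in every library. Over all its macrophages B2m was 3728 CPM, against 2546 to 2810 CPM in the others. Psmb8 was lowest in the library with suffix 5 in 9 of 9 gates, at 415 CPM in macrophages against 520.2 to 696 CPM. The same library had the lowest Psmb9 and the lowest H2-D1 in 7 gates each, and the highest Tapbp in 6, so its levels were not low in general. The ratios given above were taken within libraries.

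Over 62 profiles of a gate in a library, the genes most like each of 4 members were ranked among 7896 genes by Pearson correlation of log2(CPM + 10), as a description, since profiles share libraries and total counts. H2-K1 was most like H2-D1 (0.74), H2-Q6 (0.72) and H2-Q7 (0.68), all related class I heavy chains. Psmb9 was most like Psmb8 (0.84), Tap1 (0.72) and Phf11b (0.72), and Tap1 was most like Tor3a (0.75), Gbp2b (0.75) and Slfn5 (0.75). Nlrc5 had weaker neighbours in Baz1a (0.57), Sh3kbp1 (0.57) and Peli1 (0.57). The lowest value between any 2 of the 10 genes was that of Nlrc5 and Erap1, at 0.03.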

How the data were processed

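The authors deposited a single matrix of UMI counts, whole numbers per gene and barcode with no normalization. Per the labels, CD45-positive cells were enriched from dissociated tumors, libraries were made with a 10x Genomics 3′ kit, and the submitters' processing notes name Cell Ranger 1.2, Seurat 3.1.5, R 4.0.1 and mm10. How reads of near-identical genes were assigned is not given in the sources used here. The deposited barcodes had at most 9.99% mitochondrial counts, and no further filter or doublet caller was applied, so mixed barcodes were handled through gates. The 6 barcode suffixes match no sample label, so the matrix was 1 pooled sample and no treatment was compared.

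Counts were summed per gate and library of at least 10 barcodes (3 in gates limited to few macrophage UMIs) and divided by all UMIs of that sum (CPM). Ratios were taken within libraries. A gene was called at a median ratio of 1.5 or its inverse with 1 direction in every library, and the background was all genes with at least 10 CPM over both groups. Intervals are exact Poisson at 95% and cover counting error only. Calls were made under alternative gates, thinning, denominators, folds and minimums and with each library left out. The text names the 10 genes, listed genes of the pathway, gate genes, both interferon lists (1 listed gene is not reported here) and 3 most similar genes for each of H2-K1, Tap1, Psmb9 and Nlrc5. These genes, lists and gates were chosen with earlier results of these data known. Code was tested on simulated data and used Python 3.11.15, numpy 2.4.6, scipy 1.17.1, pandas 2.3.3 and matplotlib 3.10.9.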

Additional observations from a re-analysis of the deposited data

Results flagged for a closer look

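In 11 of 100 pairs of a gene and a gate with enough libraries, the highest or lowest library lay far from the others by Dixon's criterion, which flags about 1 in 20 independent groups by chance. The pairs share the same libraries and are not independent, so their count cannot be set against that rate. The library with suffix 6 was the highest in 8 of them. For B2m it stood at 4088 CPM in Rsad2 macrophages (the others 2628 to 3000), 3157 CPM in C1qa macrophages (2542 to 2690), 3457 CPM in macrophages with both markers (2427 to 2749) and 3588 CPM in the S100a9 gate (2453 to 2778). For Tap2 it stood at 149 CPM in Rsad2 macrophages (105 to 119.8), 117 CPM in C1qa macrophages (74.9 to 90.0) and 143 CPM in the S100a9 gate (94.1 to 107), and for Tapbp at 557 CPM in the S100a9 gate (359 to 431). The library with suffix 5 gave the others. It was lowest for B2m in other dendritic cells at 1834 CPM (2271 to 2438) and for Psmb8 in NK cells at 333 CPM (559 to 660), from 41 UMIs, and highest for Nlrc5 in NK cells at 81.3 CPM (16.4 to 27.1), from 10 UMIs in 22 barcodes. The treatment of either library is unknown.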

How the results depend on the processing

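No paired analysis was possible because the barcode suffixes could not be tied to the labelled tumors, so the replicate numbers of the labels could not be used. No ratio that had been called changed direction. Of 279 ratios recomputed under the alternatives, for all 10 genes in Rsad2 macrophages and elsewhere for called genes, 248 kept their call status and direction, 22 lost a call, 2 gained one and 7 without a call crossed 1. Outside that count, genes not called as reported gained a call 24 times, for 16 pairs of a gene and a comparison. Each count below is followed by the share of all genes called in either direction under the same setting. With gates set at 3000 UMIs per barcode, the count of the 10 genes called was 2 for Rsad2 macrophages (4.46%), 2 for C1qa against Ly6c2 macrophages (4 libraries, 15.9%), 1 for T cells (Tapbp lost, 0.74; 25.4%) and 1 for NK cells (Tap1 lost, 0.64; 28.8%). It was 0 for C1qa against Ly6c2 macrophages (Tap2 at 0.67, 10.6%), 0 for type 1 against other dendritic cells (Tap1 at 1.40, 15.7%) and 1 for T cells (Tapbp at 0.668, 33.5%) with a macrophage gate of at least 6 UMIs. With the deepest 5% of barcodes left out, the count was 2 for type 1 dendritic cells against macrophages (Psmb8 gained, 1.57, 10.1%), 1 for T cells (Tapbp at 0.679, 33.8%) and 2 for B cells (Psmb8 gained, 0.60, 20.5%), and with the other denominator 1 for T cells (34.1%) and 1 for NK cells (38.2%). At a fold of 2 all calls were lost, giving 0 in C1qa against Ly6c2 macrophages (7.07%), type 1 dendritic cells against macrophages (3.24%) and other dendritic cells (11.4%), T (21.5%), NK (25%) and B cells (6.78%). A minimum of 50 CPM gave 1 for T cells (39.5%) and 0 for B cells (13.2%), as Nlrc5 or Erap1 then fell below it. Of 110 levels of a gene in a gate, 62 left the range of their libraries with mitochondrial and ribosomal protein genes out of the denominator, and 4 did when summed over libraries. With few macrophage UMIs in the gate and a minimum of 3 barcodes, the count was 3 for type 1 dendritic cells against macrophages (20.8%). It was 1 for the S100a9 gate (14.7%) and 3 for B cells (29.5%), including Erap1 on 3 UMIs, too few for a fold. Against other dendritic cells it stayed at 1, with H2-K1 lower (0.64) in place of Tap1 (1.47; 8.15%). In the libraries as reported these limited gates gave 2 there (12.2%) and 3 for B cells (41.8%). Among the latter was Nlrc5, on at most 3 UMIs, too few for a fold. Whole gates with that minimum gave 0 for both comparisons (14.5% and 6.9%). The median correlations with the type I and type II scores were 0.0751 and 0.0787 at 1000 UMIs and 0.153 and 0.185 at 5000 UMIs. Beyond the fewer genes or barcodes each setting leaves, the cause was not tested. With each library left out in turn, counts ran from 1 to 2 for type 1 dendritic cells against macrophages (8.71 to 10.7%), from 0 to 1 against other dendritic cells (17.8 to 24.7%), from 1 to 2 for T cells (33.5 to 38.7%) and for B cells (17 to 29.9%), from 2 to 4 in the type I quartiles (4.6 to 6.54%) and from 4 to 5 in the type II quartiles (6.35 to 7.39%). The median correlations ran from 0.111 to 0.117 and from 0.144 to 0.168. Without lymphocyte counts the quartiles gave 3 for type I (Psmb9 gained, 1.51; 4.96%) and 6 for type II (Tapbp gained, 1.51; 6.46%), both shares without the score genes. Thinned gates and the removal of barcodes of more than 1 gate gave too few libraries for both type 1 dendritic comparisons and for B cells. Nlrc5 and Erap1 rest on few UMIs in other dendritic cells (41 and 37) and in B cells, which limits their precision there.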
